A study of Mus musculus with 18 samples.

Results

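The 6 end-stage splenic tumours with the highest mitotic score were compared with the 6 of lowest score, out of 18 tumours in the series. The score of a tumour was the mean log2 level of the score genes Mki67, Cdk1, Plk1, Bub1 and Top2a, and the 6 tumours between the extremes were left out of the comparison. Another gene of the score, Ccnb1, was not used here because no probe set carried it as its only symbol, so 5 of 6 score genes were measured. Each tumour came from a different mouse and was hybridised to 1 Affymetrix array. The transgene Eμ-Myc, shared by every mouse, places Myc under the enhancer of the immunoglobulin heavy chain locus and so drives it in B-lineage cells; the background was labelled C57BL/6. The mice were labelled either Prdm11 wild-type (WT, 9 tumours) or Prdm11 knockout (KO, 9 tumours). The tumours were frozen whole, no sorting of tumour cells was stated, and neither age nor sex is given in the sources used here. The high-score group held 2 WT and 4 KO tumours and the low-score group 4 WT and 2 KO tumours, and none of them was treated.

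A cell entering mitosis activates CDK1 with cyclins A and B, and Polo-like and Aurora kinases then drive spindle assembly. Condensin and topoisomerase IIα shape the chromosomes, kinetochores attach them to kinesin-rich spindles, and the spindle checkpoint with BUB1 holds back the anaphase-promoting complex until attachment is complete. Many of these genes are transcribed mainly late in the cell cycle, and Ki-67, a protein that coats mitotic chromosomes, is a standard marker of cycling cells in lymphoma.

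Mki67 ranged from 10.23 to 11.51, with a median of 10.63, in the 6 high-score tumours. It ranged from 9.07 to 9.45, with a median of 9.16, in the 6 low-score tumours. The middle tumours lay between 9.30 and 9.91, so the high-score tumours stood apart from all others for this gene. These and all further levels are log2 RMA intensities, on which a difference of 1 is a doubling, and the score genes chose the tumours, so their values are a description.

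Plk1, the Polo-like kinase of mitotic entry, lay between 6.41 and 7.13 in the high-score group and between 5.08 and 6.09 in the low-score group. Top2a, which untangles sister chromatids, lay between 10.60 and 11.11 against 9.61 and 10.21. For both genes the extreme groups did not overlap. Cdk1, the kinase that starts mitosis, differed: its 6 high-score values ran from 8.90 to 9.67 and its low-score values from 7.85 to 9.39, and 4 of the 6 low-score tumours lay within the range of the high-score group. Bub1, the checkpoint kinase, ran from 8.52 to 9.13 against 7.09 to 9.06, and the middle group had the highest median, 9.09. Since these genes chose the tumours, their values are no check of the label, and Cdk1 and Bub1 overlapped even so; the groups are called high-score and low-score here.

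Across the 18 tumours Mki67 had a Pearson correlation of 0.89 with Top2a and 0.86 with Plk1, but 0.33 with Bub1 and 0.20 with Cdk1. Cdk1 and Bub1 correlated at 0.72 with each other. These are descriptions over tumours measured on arrays of 1 kind. KO tumours 3 and 4 entered the high-score group with Cdk1 at 8.90 and 9.00, the lowest of that group, and Mki67 at 10.70 and 10.57. KO tumour 6 and WT tumour 3, the lowest 2 tumours by score, had Cdk1 at 7.85 and 8.62 and Bub1 at 7.70 and 7.09.

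**Figure D1:**
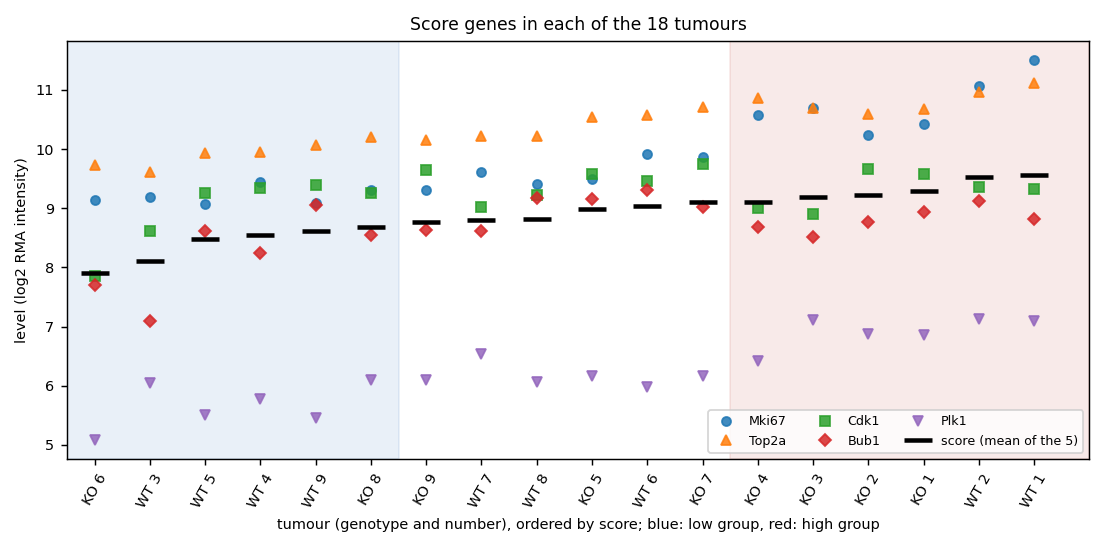
Level of each score gene (log2 RMA intensity, vertical axis) in each of the 18 tumours, ordered by score from left to right; black bars mark the score, and shading marks the low-score (blue) and high-score (red) groups. Mki67, Plk1 and Top2a are higher in every high-score than in every low-score tumour, with Mki67 at 10.23 or more in the high-score group, and Cdk1 and Bub1 overlap between the groups.

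The score ran from 7.90 in KO tumour 6 to 9.57 in WT tumour 1. The upper boundary was narrow: KO tumour 4, the last in the high-score group, had a score of 9.108, and KO tumour 7, the first outside it, had 9.099. At the lower boundary KO tumour 9 scored 8.770 and stayed out, and KO tumour 8 scored 8.682 and entered the low-score group. The high-score tumours were numbered 1 and 2 among the WT and 1 to 4 among the KO tumours, the lowest numbers of each genotype. The sources used here do not say what the numbers follow and give no processing batch or scan date. Whether handling moved with the groups was not tested.

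Upstream sequences of 4 score genes and 2 of the genes with the largest differences are shown because cell cycle genes are known for 2 short promoter elements, the CHR (TTTGAA, or its variant TTTAAA) and the CCAAT box. The sequences are the 250 bases before the gene start from RefSeq, build GRCm38.p6, at chr7:135716380-135716629 on the minus strand for Mki67, chr11:99024190-99024439 on the minus strand for Top2a, chr10:69352913-69353162 on the minus strand for Cdk1, chr7:122159185-122159434 on the plus strand for Plk1, chr1:189688087-189688336 on the minus strand for Cenpf and chr9:21615919-21616168 on the plus strand for Smarca4. Each is written 5′ to 3′ in the direction of the gene, with capitals where either CHR form, a CCAAT box or the reverse complement of one of them occurs.
Mki67: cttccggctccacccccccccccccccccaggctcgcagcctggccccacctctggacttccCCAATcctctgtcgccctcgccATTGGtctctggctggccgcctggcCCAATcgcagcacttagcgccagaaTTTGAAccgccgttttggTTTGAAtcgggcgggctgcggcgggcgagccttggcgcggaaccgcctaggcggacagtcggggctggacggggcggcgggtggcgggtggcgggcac
Top2a: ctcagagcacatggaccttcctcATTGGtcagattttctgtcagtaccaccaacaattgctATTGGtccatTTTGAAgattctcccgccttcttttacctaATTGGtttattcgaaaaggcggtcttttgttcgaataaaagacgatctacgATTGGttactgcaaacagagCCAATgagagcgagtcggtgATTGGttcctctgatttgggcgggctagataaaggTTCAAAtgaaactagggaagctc
Cdk1: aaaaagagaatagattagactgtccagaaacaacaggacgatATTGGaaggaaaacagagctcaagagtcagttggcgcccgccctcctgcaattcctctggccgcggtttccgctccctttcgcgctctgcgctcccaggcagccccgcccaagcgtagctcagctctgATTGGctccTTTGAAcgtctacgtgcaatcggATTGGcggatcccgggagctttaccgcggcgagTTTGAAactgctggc
Plk1: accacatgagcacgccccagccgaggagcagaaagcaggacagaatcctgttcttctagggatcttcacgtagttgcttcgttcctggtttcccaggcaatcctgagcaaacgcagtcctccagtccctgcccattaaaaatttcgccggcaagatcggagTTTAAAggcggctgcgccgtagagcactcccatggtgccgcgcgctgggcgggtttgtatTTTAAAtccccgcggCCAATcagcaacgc
Cenpf: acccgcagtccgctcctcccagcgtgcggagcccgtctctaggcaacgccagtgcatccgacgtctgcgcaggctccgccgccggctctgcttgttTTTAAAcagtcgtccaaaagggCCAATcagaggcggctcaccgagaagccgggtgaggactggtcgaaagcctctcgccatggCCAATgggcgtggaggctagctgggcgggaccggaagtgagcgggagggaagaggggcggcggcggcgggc
Smarca4: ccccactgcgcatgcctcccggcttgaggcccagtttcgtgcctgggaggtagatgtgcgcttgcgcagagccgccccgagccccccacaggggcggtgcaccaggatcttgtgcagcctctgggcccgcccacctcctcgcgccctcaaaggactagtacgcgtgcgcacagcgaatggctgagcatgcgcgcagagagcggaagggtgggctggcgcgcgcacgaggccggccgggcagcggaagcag
The Cdk1 sequence holds TTTGAA at positions -71 and -15 from the gene start, and Mki67 holds it at -116 and -98. Plk1 and Cenpf hold TTTAAA in the bases shown, and Smarca4 holds none of the motifs. Bub1, the remaining measured score gene, is not shown. It holds CCAAT or its reverse complement at -68 and -42 and neither CHR form.

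Promoters from 250 bases before to 50 after the start were matched by symbol for 15615 of 19938 measured genes, and both strands were searched. TTTGAA was present in 15.2% of all of these promoters. Of the 8 mitosis lists described below, genes that were higher in the high-score tumours held it in 24 of 36 promoters (66.7%). Among genes of these lists that did not pass the test it was present in 34 of 85 (40.0%). CCAAT was present in 38.2% of all promoters, in 77.8% of those of the higher mitosis genes and in 50.6% of those of the mitosis genes not called. The letters TTTCCCGC and TTTGGCGC, both forms of the E2F site, were in 1.59% and 0.756% of all promoters. They were in 11.1% and 8.33% of those of the higher mitosis genes, or 4 and 3 of 36. Among mitosis genes not called they were in 3.53% and 4.71%. CACGTG, the E-box that MYC binds, was in 8.38% of all promoters, 2.78% of the higher mitosis genes and 5.88% of those not called. TTTAAA was in 11.6%, 13.9% and 14.1% of the same sets. Each motif was counted on its own. Outside the cell cycle lists, the higher genes held TTTGAA in 11.2% and CCAAT in 35.9% of promoters. Over all higher genes TTTGAA was in 16.6% of promoters, and over the lower genes in 18 of 65 (27.7%). A match of letters is no evidence of binding, and these shares are a description.

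Of 19933 other genes, 506 (2.54%) were higher and 78 (0.391%) were lower in the high-score tumours at a limma adjusted p below 0.05. The tumours were chosen on the same arrays, so a difference is an association with the score and not the effect of a condition. At least 2-fold differences were found for 97 of the higher and 26 of the lower genes. The groups did not overlap, with the high-score values above in 379 genes (1.9%) and below in 94 (0.472%), of which 300 and 44 were among those called. Of the 506 higher genes, 165 had all 6 high-score tumours above each of the other 12, which held for 0.928% of all genes, and 8 of the 78 lower genes had all 6 below, which held for 0.0502%. Leaving out WT tumours 1 and 2, the only WT tumours of the high-score group, left 40 higher genes and 1 lower gene. Leaving out WT tumour 4 left 212 and 18, and leaving out KO tumour 6 gave 840 and 131. Quantile normalization gave 514 higher and 197 lower genes, so 72.3% of calls were higher against 86.6% here.

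Members of the cell cycle lists made up 60 of the 506 higher genes and none of the 78 lower genes. The 14 cell cycle lists held 246 measured genes, of which 24.4% were called higher, against 2.54% of all genes. Their median difference was 0.39, against -0.04 for all genes. Since the tumours were chosen by mitotic genes, these counts follow closely from the choice and support nothing beyond it. The other 446 higher genes lay outside these lists, and some of them, such as Ticrr, have roles in replication.

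**Figure D2:**
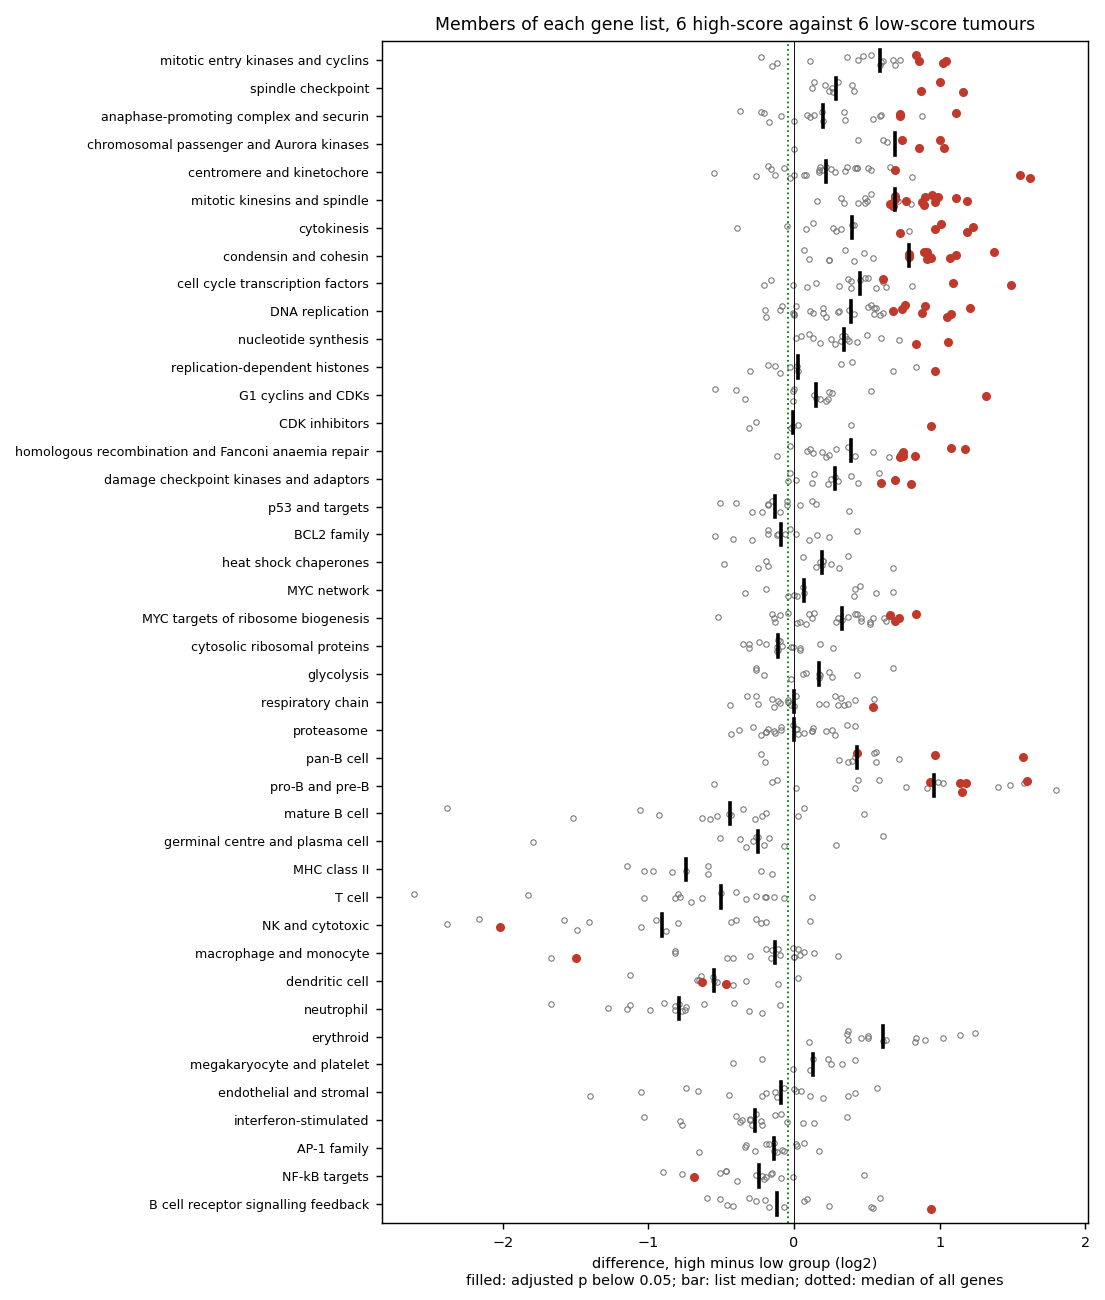
Difference between the 6 high-score and 6 low-score tumours (log2, horizontal axis) for each measured member of 42 gene lists (rows); filled points passed the limma test, bars are list medians and the dotted line is the median of all genes. Filled points to the right are mostly mitosis, replication and repair genes, and the erythroid, MHC class II and neutrophil lists lean to one side with none filled.

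Mitotic entry genes rose in part: 4 of 18 passed the test, all higher, with a list median of 0.59. Ccna2, the A-type cyclin, lay between 9.69 and 10.41 (median 9.96) in the high-score tumours and between 8.64 and 9.53 (median 9.23) in the low-score tumours. The groups did not overlap, and the difference was 0.84 (SE 0.18; limma adjusted p = 0.025). Phosphatases that activate CDK1 were also higher, Cdc25b by 1.02 (limma adjusted p = 0.00378) and Cdc25c by 1.04 (limma adjusted p = 0.0293). Bora, a cofactor in the activation of Polo-like kinase, was higher by 0.86 (limma adjusted p = 0.0127). Ccnb2, the partner of CDK1 nearest to the unmeasured Ccnb1, differed by 0.44, with a limma adjusted p of 0.396.

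In the spindle list, 13 of 23 mitotic kinesin and spindle genes rose, none fell, and all 23 had a positive difference. Kif4, a chromosome-bound kinesin, lay between 8.18 and 8.95 (median 8.24) in the high-score tumours and between 6.71 and 7.67 (median 7.37) in the low-score tumours. It was higher by 1.19 (SE 0.19; limma adjusted p = 0.00653), with no overlap. Kif23, a kinesin of the midzone where the daughter cells part, was higher by 1.11 (limma adjusted p = 0.00218), and Prc1, which bundles the midzone microtubules, by 0.99 (limma adjusted p = 0.0341). Ckap5, a microtubule polymerase, was higher by 0.97 (limma adjusted p = 0.00164).

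Chromosome structure genes rose in part. In the condensin and cohesin list, 9 of 19 genes were higher and the median difference was 0.79. Smc1a, a core subunit of the cohesin ring, lay between 10.67 and 11.24 (median 11.11) in the high-score tumours. It lay between 9.30 and 10.26 (median 9.57) in the low-score tumours, and the difference was 1.37 (SE 0.17; limma adjusted p = 0.00164). The condensin subunits Ncaph, Ncapg and Ncapg2 were higher by 1.11, 1.07 and 0.94 (limma adjusted p = 0.00664, 0.00772 and 0.048). Of the chromosomal passenger and Aurora kinase list 4 of 8 genes rose, among them Cdca8, the borealin subunit, by 1.03, and Aurkb, its kinase, by 0.74 (limma adjusted p = 0.0243 and 0.0232).

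Kinetochore genes were uneven. Cenpf, a large protein of the outer kinetochore, lay between 8.12 and 8.93 (median 8.38) in the high-score tumours and between 6.58 and 6.94 (median 6.87) in the low-score tumours. Its difference of 1.62 (SE 0.14; limma adjusted p = 0.00015) was a 3.08-fold difference, and all middle tumours lay at or below 7.60. Cenpe, the kinetochore kinesin, lay between 9.02 and 9.72 against 7.53 and 8.06 and was higher by 1.55 (SE 0.14; limma adjusted p = 0.000184). Yet 26 of the 29 measured members of the centromere and kinetochore list did not pass the test and the list median was 0.22, which became 0.087 without KO tumour 6 and 0.375 without WT tumour 9. Cenpa, the histone variant that marks centromeres, differed by 0.22 (limma adjusted p = 0.733) and Ndc80, which grips microtubules, by 0.35 (limma adjusted p = 0.318).

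In the spindle checkpoint list 3 of 12 genes rose, with a list median of 0.29 (0.179 without KO tumour 6). They were Bub1b, higher by 1.16, Ttk by 1.0 and Kntc1 by 0.87 (limma adjusted p = 0.00467, 0.00686 and 0.0352). In the anaphase-promoting complex and securin list 3 of 20 rose, Anapc5 by 1.11, Anapc1 by 0.73 and Cdc23 by 0.73 (limma adjusted p = 0.00723, 0.047 and 0.0355), and all 3 are core subunits of that ubiquitin ligase. Its activator Cdc20 differed by 0.54 (limma adjusted p = 0.137), and Pttg1, the securin it destroys, by -0.21 (limma adjusted p = 0.648). In the cytokinesis list 5 of 15 rose, with Arhgap11a higher by 1.23, Prr11 by 1.19, Cit by 1.01 and Diaph3 by 0.97 (limma adjusted p = 0.00433, 0.00296, 0.00433 and 0.0116).

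In all, 3 transcription factors of the cell cycle list of 19 were higher. E2f8, an atypical E2F repressor, lay between 7.47 and 9.15 in the high-score tumours and between 6.20 and 7.02 in the low-score tumours, and it was higher by 1.49 (SE 0.26; limma adjusted p = 0.00878). Foxm1, an activator of late cell cycle genes, was higher by 1.09 (limma adjusted p = 0.00296), and E2f7 by 0.61 (limma adjusted p = 0.016). Foxm1 was at 5.73 in KO tumour 4 and between 6.40 and 6.66 in the other high-score tumours.

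Replication genes rose in part, 8 of 32, with a list median of 0.39. Dnmt1, which copies DNA methylation onto new strands, lay between 8.28 and 8.70 (median 8.43) in the high-score tumours and between 6.94 and 7.76 (median 7.18) in the low-score tumours. The difference was 1.21 (SE 0.14; limma adjusted p = 0.00152), and its partner Uhrf1 was higher by 1.05 (limma adjusted p = 0.0123). Pola1, the catalytic subunit of polymerase alpha, was higher by 1.08, and the helicase subunit Mcm6 by 0.90 (limma adjusted p = 0.0136 and 0.00926). Pcna, the sliding clamp, differed by 0.20 (limma adjusted p = 0.5).

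All 18 measured nucleotide synthesis genes had a positive difference, with a median of 0.34, and 2 passed, Ctps by 1.06 and Gmps by 0.84 (limma adjusted p = 0.0408 and 0.0358). Among 15 G1 cyclins and CDKs 1 passed, Cdk6, which was higher by 1.32 (limma adjusted p = 0.00899). Among 7 CDK inhibitors 1 passed, Cdkn2c, the p18 inhibitor of CDK4 and CDK6, which was higher by 0.94 (limma adjusted p = 0.0302). Of 12 replication-dependent histone genes, H4c4 was higher by 0.97 (limma adjusted p = 0.0438) and the list median was 0.03.

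Repair genes also rose in part. In the homologous recombination and Fanconi anaemia list 6 of 20 rose and none fell, with a median of 0.39. Bard1, the partner of BRCA1, lay between 7.50 and 8.45 against 6.57 and 6.99 and was higher by 1.17 (SE 0.17; limma adjusted p = 0.00378). Brca2, a homologous recombination gene, was higher by 1.08 and Brca1 by 0.75 (limma adjusted p = 0.0144 and 0.0392). In all, 3 of 15 damage checkpoint genes rose, H2ax by 0.80, Topbp1 by 0.69 and Mdc1 by 0.60 (limma adjusted p = 0.0293, 0.0175 and 0.0416). None of 14 p53 genes and none of 14 BCL2 family genes passed, with list medians of -0.13 and -0.09. Over all genes 2.54% were higher and 0.391% lower, so no call among 14 does not show that a list stayed level.

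**Figure D3:**
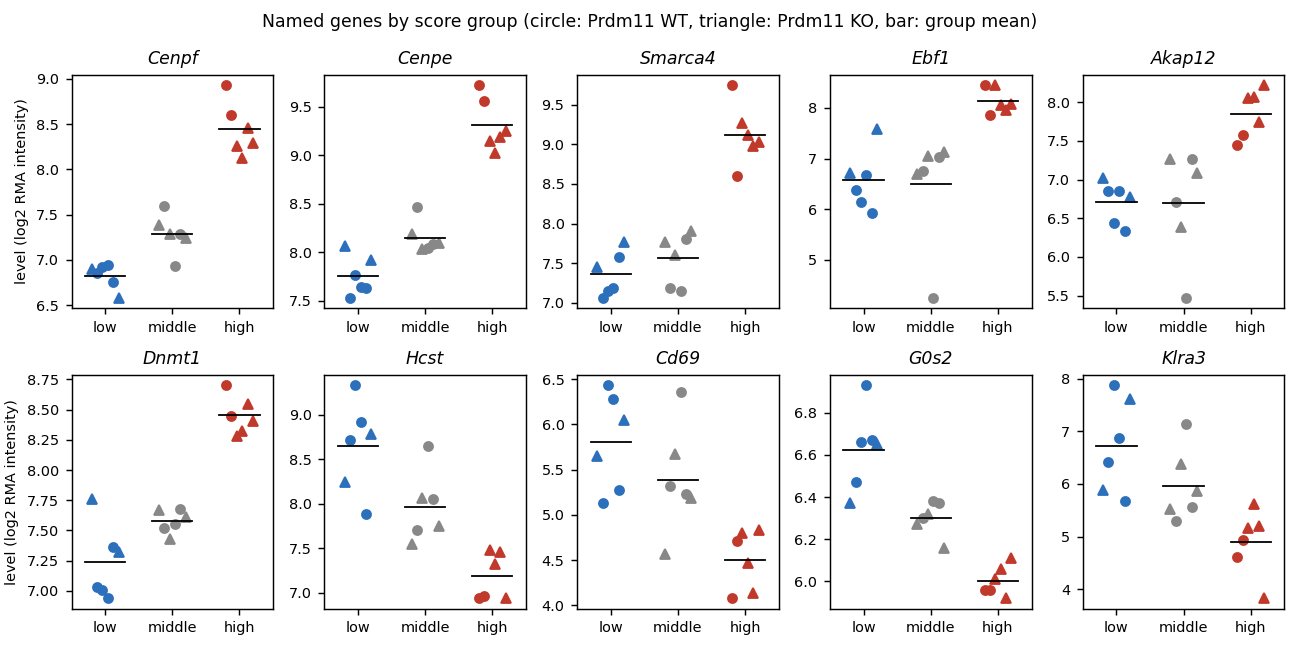
Level (log2 RMA intensity, vertical axes, which do not start at 0) of 10 named genes in the low-score, middle and high-score tumours; circles are WT, triangles KO and bars group means. Cenpf, Cenpe, Smarca4, Ebf1, Akap12 and Dnmt1 are higher in every high-score tumour than in any other, and Hcst, Cd69, G0s2 and Klra3 are lower than in any low-score tumour.

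Outside the cell cycle lists, the largest difference among higher genes whose groups did not overlap was that of Smarca4. Smarca4 encodes the ATPase of SWI/SNF chromatin remodelling complexes. It lay between 8.60 and 9.75 (median 9.08) in the high-score tumours and between 7.06 and 7.77 (median 7.32) in the low-score tumours. No other tumour exceeded 7.90, and the difference was 1.76 (SE 0.18; limma adjusted p = 0.000328), or 3.38-fold. Pbrm1, which belongs to 1 form of the same complex, was higher by 1.43, and Cecr2, a bromodomain protein of another remodelling complex, by 1.60 (limma adjusted p = 0.00714 and 0.00686). In Pbrm1 the extreme groups did not overlap, but the highest middle tumour, at 9.86, was above the lowest high-score tumour, at 9.57.

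The other genes of largest difference had mixed roles. They were Qser1 (1.57), Prep, a prolyl peptidase (1.48), Cep128, a centriole protein (1.42), Slc38a2, an amino acid transporter (1.35), and Dnajc21, a co-chaperone (1.29), with limma adjusted p of 0.00805, 0.0232, 0.00653, 0.00378 and 0.00714. Lmnb1, a protein of the nuclear lamina, was higher by 1.27, Neil3, a DNA glycosylase, by 1.26, and Ticrr, which starts replication origins, by 1.25 (limma adjusted p = 0.00714, 0.000328 and 0.000328). In Prep, WT tumour 1 was at 9.35 and the other high-score tumours lay between 7.31 and 7.98.

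The higher genes spanned more of the genome than the others. Their median genomic span was 47.1 kb and that of the lower genes 9.1 kb, against 17.7 kb over all genes tested. The 446 higher genes outside the cell cycle lists had a median of 49.5 kb. Mitosis genes that passed had a median of 38.8 kb and those that did not pass 19.8 kb. The part of gene length in the calls was not tested.

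MYC, the driver of these tumours, was measured at 10.12 to 10.91 (median 10.42) in the high-score tumours and at 9.03 to 10.39 (median 9.83) in the low-score tumours. The groups overlapped, and the difference of 0.68 (SE 0.22) did not pass the test (limma adjusted p = 0.113). Of 29 MYC targets in ribosome biogenesis 4 rose, with a list median of 0.33 that became 0.079 with the T cell mean as a covariate. They were Fbl, which methylates ribosomal RNA (0.84), Gar1 (0.72), Polr1a, a subunit of RNA polymerase I (0.69), and Ncl, nucleolin (0.66), with limma adjusted p of 0.0293, 0.0232, 0.0466 and 0.0359. No glycolysis, proteasome, heat shock or cytosolic ribosomal protein gene passed, and 1 respiratory chain gene did, Atp5a1, higher by 0.54 (limma adjusted p = 0.04). With 2.54% of all genes higher, such counts do not set lists of this size apart.

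Some B-lineage genes differed between the groups. Ebf1, a factor that specifies B cells, lay between 7.86 and 8.45 (median 8.07) in the high-score tumours and between 5.93 and 7.58 (median 6.52) in the low-score tumours, and it was higher by 1.57 (SE 0.23; limma adjusted p = 0.00427). Pax5, which commits cells to the lineage, was higher by 0.97 and the coactivator Pou2af1 by 0.43 (limma adjusted p = 0.0352 and 0.0293). Those 3 were the members of 13 measured pan-B genes that passed. The B cell receptor subunit Cd79b had a mean of 9.44 ± 0.42 (SD, n = 6) in the high-score and 9.65 ± 0.53 (SD, n = 6) in the low-score tumours, so B-lineage RNA was plainly present in both.

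Among 20 genes of the pro-B and pre-B stages 5 were higher, against 2.54% of all genes, and none lower. The largest called difference was that of Cecr2, the bromodomain protein named above, at 1.60. The list median was 0.96. That median ran from 0.535, with the score built without Plk1, to 1.231, with the erythroid mean as a covariate. Akap12 lay between 7.44 and 8.22 (median 7.90) against 6.34 and 7.02 (median 6.81) and was higher by 1.14 (SE 0.16; limma adjusted p = 0.00378). Cd93, a surface marker of immature B cells, was higher by 1.18 and Vpreb3, an endoplasmic reticulum protein of the pre-B stage, by 1.15 (limma adjusted p = 0.0127 and 0.018). The 6 high-score tumours were not uniform: the list mean was 7.17 to 7.62 in WT tumour 1 and KO tumours 1, 2 and 4 but 6.27 in WT tumour 2 and 6.25 in KO tumour 3. Rag1, which cuts immunoglobulin genes for recombination, had a mean of 7.42 ± 1.82 (SD, n = 6) against 5.62 ± 0.96 (SD, n = 6), and the difference of 1.80 did not pass (limma adjusted p = 0.193).

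Mature B cell genes gave no calls among 16, where 0.391% of all genes were lower, and the list median was -0.44. Ms4a1, which encodes CD20, ran from 4.84 to 9.52 in the high-score tumours and from 7.88 to 10.58 in the low-score tumours; the difference was -2.38 (SE 0.72, limma adjusted p = 0.0916). All 9 MHC class II genes had a negative difference, with a median of -0.74, and none passed. Among them H2-Ea lay below the lowest array median of 5.14 in every tumour and may not be above background. H2-Eb1, a β chain, differed by -1.15 (limma adjusted p = 0.224). Over all genes tested 41.1% had a positive difference.

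Klra3, an NK receptor of the Ly49 family, lay between 3.83 and 5.62 (median 5.05) in the high-score tumours and between 5.68 and 7.87 (median 6.65) in the low-score tumours. It fell by 1.83 (SE 0.38; limma adjusted p = 0.0189), and Klra8 of the same family fell by 2.02 with overlapping groups (limma adjusted p = 0.04998), where probes may not separate family members. Hcst, the adaptor of the NK receptor NKG2D, lay between 6.94 and 7.48 against 7.88 and 9.33 and fell by 1.47 (SE 0.21; limma adjusted p = 0.00421).

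Cd69, an activation marker of lymphocytes, lay between 4.08 and 4.83 in the high-score tumours and between 5.13 and 6.43 in the low-score tumours, and it fell by 1.30 (limma adjusted p = 0.00942). Cd52, a surface glycoprotein of lymphocytes and monocytes, fell by 1.80 (limma adjusted p = 0.0408). Clec4a4, a lectin of dendritic cells, fell by 1.46 (limma adjusted p = 0.00427). It was at 2.90 or less in the high-score and at 3.60 to 4.69 in the low-score tumours. All of these values were below the lowest array median of 5.14, so it may not be above background. Mcemp1 fell by 1.49, Tctex1d2 by 1.35, Cd300c2, a myeloid receptor, by 0.95, and Ccr3, the eotaxin receptor, by 0.93 (limma adjusted p = 0.0214, 0.00882, 0.0481 and 0.037). The remaining 6 of the 15 largest falls without overlap were those of Zfp119b (1.07), Avpi1 (1.03), Calhm6 (0.87), Akr1c19 (0.85), Ell3, an elongation factor (0.84), and Adtrp (0.84), with limma adjusted p of 0.0148, 0.00899, 0.032, 0.0175, 0.036 and 0.026. Akr1c19 was below 5.14 in every tumour of both groups. Klra8, Cd69, Zfp119b and Adtrp were below 5.14 in every high-score tumour, where they may not be above background.

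Marker levels of other cell types also differed between the groups. The T cell list mean, over 17 genes, was 5.17 to 5.39 in the high-score tumours and 5.32 to 6.80 in the low-score tumours, where KO tumour 6, WT tumour 4 and WT tumour 5 stood at 6.80, 6.57 and 6.36. WT tumour 8, in the middle by score, was at 6.72. The other 3 low-score tumours, KO tumour 8, WT tumour 9 and WT tumour 3, had T cell means of 5.32 to 5.41, near the high-score range. Their levels were 8.25, 8.72 and 7.88 for Hcst, 5.65, 5.13 and 5.27 for Cd69 and 3.69, 3.60 and 3.61 for Clec4a4. These genes were named because the extreme groups did not overlap, so low-score values above every high-score value follow from that choice. With the T cell mean as a covariate 138 genes were lower and 450 higher. These were largely other genes: of the 584 genes called without the covariate, 286 (49.0%) were called with it. Cd3d, a T cell receptor subunit, averaged 5.71 ± 1.23 (SD, n = 6) against 8.31 ± 2.27 (SD, n = 6), and no T cell gene passed. The NK list mean was 4.60 to 5.06 against 4.91 to 6.91, with 1 of 16 genes lower and a median of -0.91. In whole tumours, fewer cells of a type and less RNA per cell cannot be told apart.

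Without WT tumours 4 and 5 and KO tumour 6 the T cell median was -0.014, the NK median -0.284, the MHC class II median -0.081 and the mature B cell median -0.079. Under that setting the kinesin and spindle median was 0.611 and the pro-B and pre-B median 0.888, against 0.69 and 0.96 with all tumours. Other medians shrank, that of cytokinesis from 0.40 to 0.161, the spindle checkpoint from 0.29 to 0.130, nucleotide synthesis from 0.34 to 0.10 and ribosome biogenesis from 0.33 to 0.081. The dendritic cell list had 2 of 14 genes lower, Bst2 by 0.63 and Clec10a by 0.47 (limma adjusted p = 0.0451 and 0.0495), although Clec10a lay below the lowest array median in all 12 tumours and may not be above background. The macrophage and monocyte list had 1 of 20 lower, Ccr2, the receptor of inflammatory monocytes, which fell by 1.50 (limma adjusted p = 0.0361). Ccr2 was at 4.87 or less, below the lowest array median, in every high-score tumour. All 17 neutrophil genes had a negative difference, with a median of -0.79 and no call, and their list mean was 5.88 to 6.65 against 5.99 to 8.15. WT tumours 4 and 5 had the highest of these means, 8.15 and 8.05. Without them and KO tumour 6 the neutrophil median was -0.246, and the dendritic cell median went from -0.555 to -0.188. The neutrophil median was -0.145 within KO tumours and -1.243 within WT tumours.

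Erythroid genes leaned the other way. All 15 had a positive difference, with a median of 0.61, and none passed. Slc4a1, the band 3 anion exchanger of red cells, ran from 7.58 to 10.12 in the high-score tumours and from 6.67 to 7.84 in the low-score tumours; the difference was 1.24 (SE 0.36, limma adjusted p = 0.0819). WT tumours 1 and 2, the top 2 by score, had the highest erythroid means, 9.23 and 8.41, and the other high-score tumours lay between 7.21 and 7.99, within the low-score range of 6.57 to 7.98 but for KO tumour 3. With the erythroid mean as a covariate 229 genes were higher and 23 lower. Without WT tumours 1 and 2 the erythroid median was 0.101 and the kinesin and spindle median 0.564. That setting compared 4 KO tumours with 4 WT and 2 KO tumours, so genotype and group size changed with it.

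**Figure D4:**
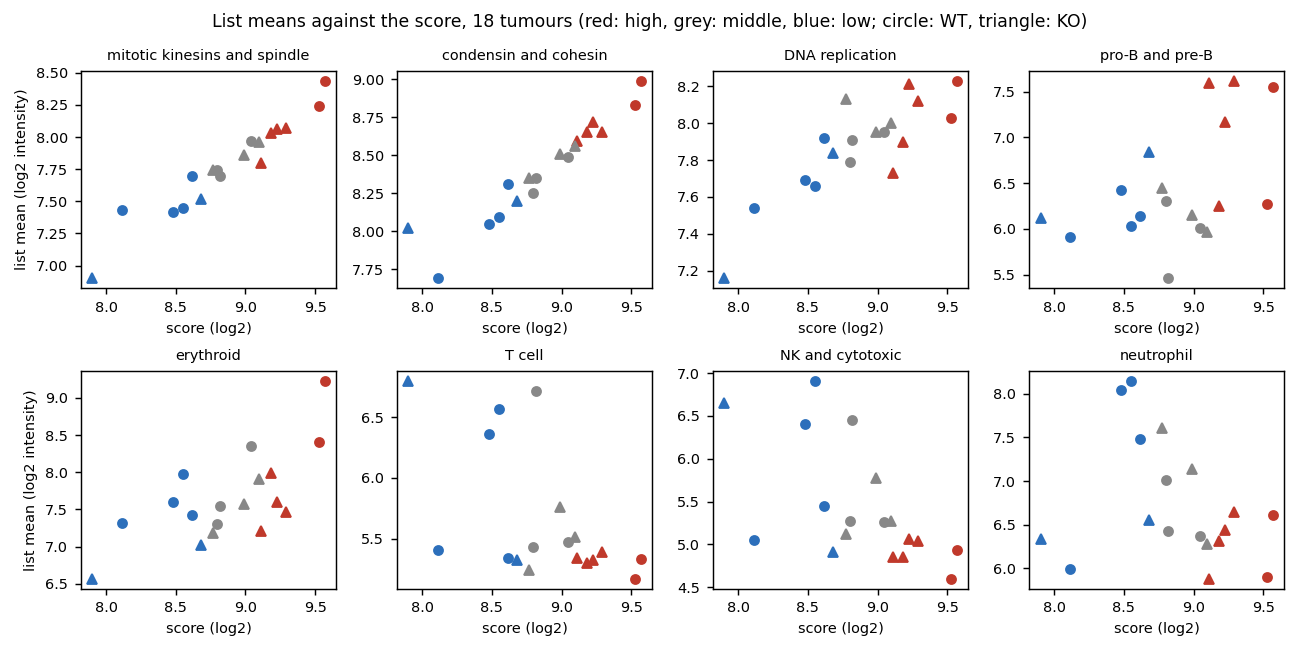
Mean level of 8 gene lists (log2 RMA intensity, vertical axes, which do not start at 0) against the score (log2) in 18 tumours; red, grey and blue mark the high-score, middle and low-score groups, circles WT and triangles KO. The spindle and cohesin means climb with the score, while the T cell mean is above 6 in 4 tumours only, 3 of them low-score.

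Signalling lists gave 1 higher and 1 lower call among 65 measured members. Over all genes 2.54% were higher and 0.391% lower, so counts this small do not set these lists apart. Inpp5d, the SHIP1 phosphatase that restrains B cell receptor signalling, was higher by 0.94 (limma adjusted p = 0.0136), the 1 call among 16 genes of B cell receptor feedback. Cd83, an NF-kB target, fell by 0.69 (limma adjusted p = 0.0491), the 1 call among 16 genes of that list. None of 18 interferon-stimulated and none of 15 AP-1 genes passed, with medians of -0.27 and -0.14.

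The genes most like the score over the 18 tumours were, by Pearson correlation, Kif4 (0.97), Kif11 (0.96), Tpx2, Ncapg and Smc2 (0.95 each), Mcm6 (0.94), Kif23, Ncaph and Kif20b (0.93 each) and Knl1 (0.92). The genes least like it were Lratd1 and Pkib (-0.87 each), G0s2 (-0.86), Msc (-0.84) and Trim7 (-0.83). Lratd1 was at 5.02 or less in every tumour, below the lowest array median of 5.14, and may not be above background. Pkib and Trim7 were below 5.14 in every high-score tumour, where the same holds. G0s2, an inhibitor of fat breakdown, lay between 5.92 and 6.11 in the high-score tumours and between 6.37 and 6.93 in the low-score tumours, and it fell by 0.62 (SE 0.11; limma adjusted p = 0.00878). These correlations include the tumours and arrays that gave the score. Smarca4 and Ebf1 had correlations of 0.67 and 0.51 with it, below those of the spindle genes.

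Genotype was not used by the score, so it could be tested. The score averaged 8.83 ± 0.48 (SD, n = 9) in WT and 8.92 ± 0.43 (SD, n = 9) in KO tumours, which is 0.082 higher in KO (SE 0.215), and the ranges of 8.11 to 9.57 and 7.90 to 9.29 overlapped. The exact two-sided permutation test over 48620 splits gave p = 0.7065. Prdm11 itself was at 4.84 to 5.66 in WT and 4.87 to 5.49 in KO tumours, so this probe set did not separate the labelled genotypes and is no check of them; the sources used here do not say whether it lies in the deleted part. Between the score groups Prdm11 differed by -0.06 (SE 0.15; limma adjusted p = 0.886).

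No gene had a slope on the score that differed between genotypes at a limma adjusted p below 0.05 (0.0% of 19933 genes; 1745 at an unadjusted p below 0.05, smallest adjusted p = 0.306). Within WT tumours alone, 2 against 4, limma called 201 genes higher and 46 lower. Within KO tumours alone, 4 against 2, it called 0 in either direction, with 658 higher and 292 lower at an unadjusted p below 0.05. The kinesin and spindle median was 0.891 within WT and 0.772 within KO tumours, and the pro-B and pre-B median 0.890 and 0.739.

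**Figure D5:**
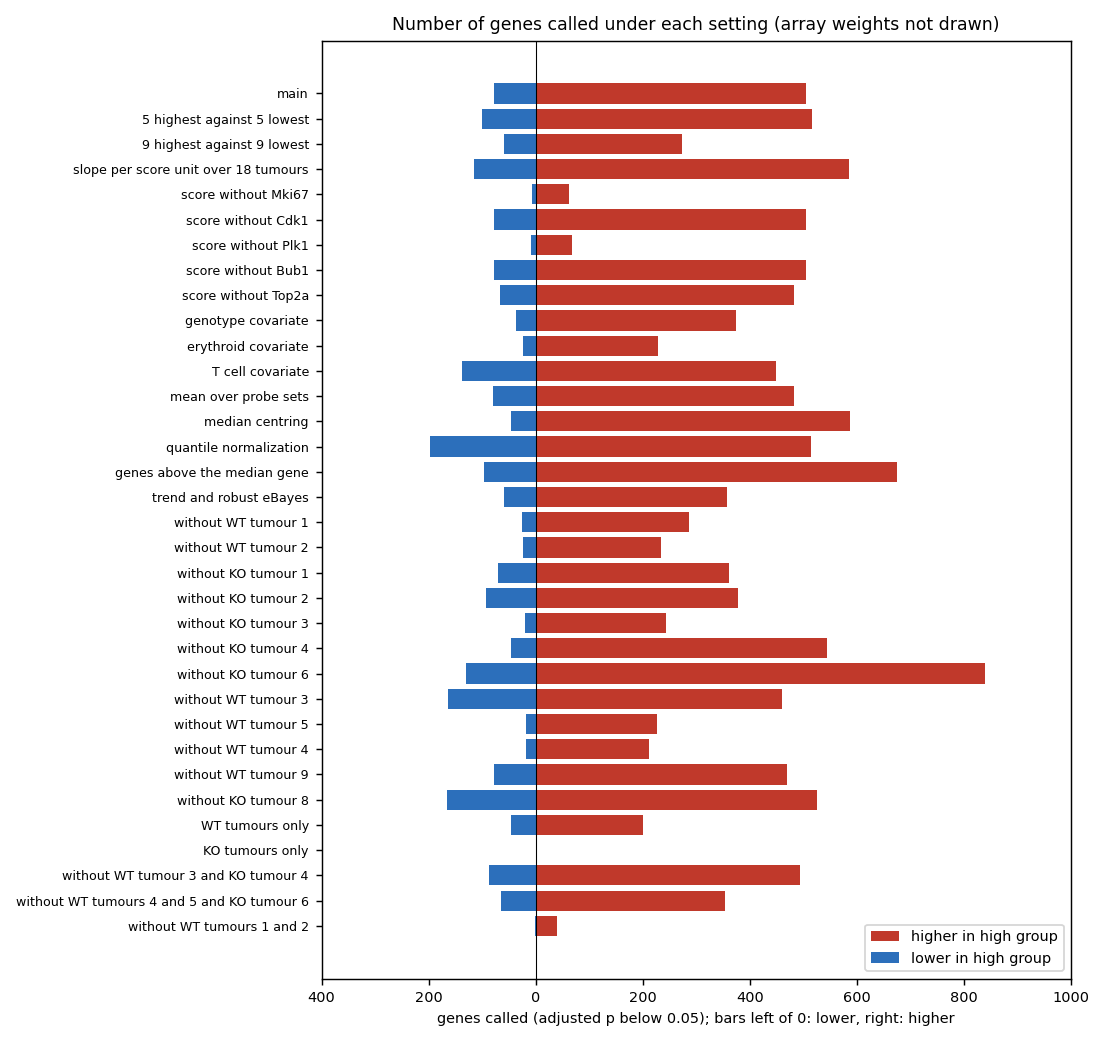
Number of genes called higher (right, red) and lower (left, blue) in the high-score tumours under each setting (rows), at a limma adjusted p below 0.05; array weights are not drawn. Counts drop most when the score is built without Mki67 or Plk1, when WT tumours 1 and 2 are left out, or within KO tumours alone, where 0 genes are called.

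The tumours in the groups depended on which genes made the score. Without Mki67 in the score, 4 of 6 high-score tumours and all 6 low-score tumours were the same, and 62 genes were higher and 6 lower. Without Plk1, 4 high-score and 5 low-score tumours were shared, and 68 genes were higher and 8 lower. Without Cdk1 or without Bub1 the groups, and so the 506 and 78 genes, were the same.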

How the data were processed

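RNA of 18 whole tumours was measured on Affymetrix arrays, 1 per tumour. Each deposited value is a linear intensity of a probe set, and the submitters' processing notes name RMA as the tool; the sources used here give neither its version nor a genome build. They were taken to log2 with no pseudocount. Of 35556 probe sets, 21789 had 1 symbol in the platform annotation, 1621 had several and 12146 none, and the probe set of highest mean stood for each of 19938 genes. Array medians were 5.14 to 5.38 (log2). The median correlation of an array with the others was 0.924 for WT tumour 3, 0.957 for KO tumour 4 and up to 0.976. No arrays held identical values. The number of arrays limits the precision.

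The 6 highest and 6 lowest tumours by score were compared with limma 3.58.1 in R 4.3.3 (lmFit and eBayes, two-sided), with Benjamini-Hochberg adjustment over all 19933 genes other than the score genes and a threshold of 0.05. The p-values measure the spread between tumours. Simulated data held 200 changed genes among 19933, varying independently, in 6 against 6 tumours not chosen by a score. There the procedure recovered 83.8% of 2-fold and 97.2% of 4-fold changes, and 6.1% of its calls were false. The tumours here were chosen on the same arrays, so these rates do not carry over to them. Gene lists are described by counts and medians, with no set test. Members and lists were chosen with earlier results of these data known. Named genes were the score genes, the 15 largest differences each way among called genes whose groups did not overlap, unannotated clones passed over, up to 4 called members of each list by size of difference (otherwise the 2 of smallest p), Prdm11, Myc, and the 10 genes most and 5 least correlated with the score; other members named as not passing were chosen after their values were seen. Alternatives were other group sizes, a slope on the score, scores without each gene, covariates (genotype, erythroid or T cell mean), the mean over probe sets, median centring, quantile normalization, a filter on dim genes, trend and robust variance, array weights, a 2-fold minimum, single genotypes and leaving out tumours. Same-numbered WT and KO tumours deviated from their genotype means with correlations of -0.23 to 0.49, over 0.1 in 4 of 9 pairs, so the numbers were not used as pairs.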

Additional observations from a re-analysis of the deposited data

Results flagged for a closer look

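In groups of 6 tumours, a tumour was marked where its gap to the nearest other tumour as a share of the group's whole range exceeded Dixon's 95% critical value. Chance marks about 1 in 20 groups, and 21 of the 364 groups looked at were marked. KO tumour 4 accounted for 9 of them, KO tumour 6 for 4, WT tumour 9 for 3, KO tumour 3 and WT tumour 1 for 2 each and WT tumour 3 for 1.

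KO tumour 4 was marked below the other 5 high-score tumours in 9 measures. Its list means were 7.32 for the anaphase-promoting complex and securin, 6.64 for cell cycle transcription factors, 7.87 for nucleotide synthesis and 6.17 for homologous recombination and Fanconi anaemia repair, where the others began at 7.71, 7.02, 8.19 and 6.44. Its levels were 6.41 for Plk1, 4.90 for Calhm6, 5.73 for Foxm1, 9.50 for H2ax and 5.81 for Gtse1, where the others began at 6.86, 5.46, 6.40, 10.06 and 6.21. KO tumour 4 was also the last tumour to enter the high-score group. Without a mark, it was the lowest of that group in further lists, such as the spindle checkpoint, 7.24, and kinesins and spindle, 7.80. The low-score tumours reached 7.61 and 7.70 in these lists.

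KO tumour 6 was below the other low-score tumours in its chromosomal passenger mean, 6.83, and its kinesin and spindle mean, 6.90. It was above them in its pan-B cell mean, 7.46 against 6.51 to 6.72, and its B cell receptor feedback mean, 6.84 against 5.94 to 6.20.

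Among the high-score tumours WT tumour 1 had Prep at 9.35 and Brca2 at 7.55, above the others, and KO tumour 3 had a BCL2 family mean of 6.43, above the others, and Fas at 4.73, below them. Among the low-score tumours WT tumour 9 had Cit at 4.98 and Itgb3 at 4.71, below the others, and Atp5a1 at 9.89, above them, and WT tumour 3 had Psmc5 at 9.10, below the others.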

How the results depend on the processing

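The main counts were 506 higher and 78 lower genes. A similar count under another setting did not mean the same genes. Of the 584 genes called, 79.1% were called again with quantile normalization and 58.6% with the slope on the score. The T cell covariate kept 49.0%, 9 against 9 tumours 46.2%, and leaving out WT tumours 4 and 5 and KO tumour 6 kept 40.1%. Higher counts that moved by over 1.5 times were 97 with a 2-fold minimum, 274 for 9 against 9 tumours, 62 with the score without Mki67, 68 without Plk1, 229 with the erythroid covariate, 1655 with array weights, 201 in WT tumours only, 0 in KO tumours only and 40 without WT tumours 1 and 2. Lower counts that moved were 26 with a 2-fold minimum, 6 with the score without Mki67, 8 without Plk1, 36 with the genotype covariate, 23 with the erythroid covariate, 138 with the T cell covariate, 46 with median centring, 197 with quantile normalization, 1081 with array weights, 46 in WT tumours only, 0 in KO tumours only and 1 without WT tumours 1 and 2. The cause was not tested. Leaving out each tumour in turn gave 212 to 840 higher and 18 to 166 lower genes. By tumour left out, these were 287 and 26 (WT tumour 1), 235 and 24 (WT tumour 2), 460 and 164 (WT tumour 3), 212 and 18 (WT tumour 4), 226 and 18 (WT tumour 5), 244 and 19 (KO tumour 3), 545 and 46 (KO tumour 4), 840 and 131 (KO tumour 6) and 526 and 166 (KO tumour 8).

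Settings chosen after seeing the data left out WT tumour 3 with KO tumour 4 (493 and 88), WT tumours 4 and 5 with KO tumour 6 (353 and 64), and WT tumours 1 and 2 (above). The difference of Fas, -0.51, became 0.07 with the T cell covariate and 0.04 without WT tumours 4 and 5 and KO tumour 6, and that of Prdm11, -0.06, became 0.05 with quantile normalization, 0.01 without KO tumour 1 and 0.00 without WT tumour 3, with a range of -0.16 to 0.01 over tumours left out. Neither was called. Medians within 0.11 of 0 changed sign with median centring for CDK inhibitors (0.104), ribosomal proteins (0.036) and the respiratory chain (0.157), and with quantile normalization for the proteasome (-0.016) and the respiratory chain (0.004). With the T cell covariate 10 of 42 list medians moved by more than the spread between tumours, and those of interferon-stimulated (0.126), macrophage (0.162), B cell receptor feedback (0.147), T cell (0.048), glycolysis (-0.106) and histone genes (-0.165) changed sign, as did ribosomal proteins, the proteasome and the respiratory chain within 0.03 of 0. The T cell and mature B cell medians were -0.273 and -0.279 without KO tumour 6, and the erythroid median 0.326 without WT tumour 1.

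The score difference between genotypes, 0.082, is the same by arithmetic with the replicate number as a block, as each number held a WT and a KO tumour. The exact sign-flip permutation test over 512 flips gave p = 0.6992. With each tumour left out the difference ran from -0.008 to 0.209. It was -0.008 without WT tumour 3. The slope test called 0 genes in all 5 settings run.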
